A study of Mus musculus with 15 samples.

Results

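The 10 genes described here belong to the antioxidant response that the transcription factor Nrf2 controls. They were chosen by name, as genes of that response with relevance to dietary anthocyanins, out of 21755 protein-coding genes. They are Nfe2l2 and Keap1 (the factor and its repressor), Gclc and Gclm (glutathione synthesis), Txnrd1, Srxn1 and Prdx1 (the thioredoxin and peroxiredoxin system), and Nqo1, Hmox1 and Blvrb (quinone, heme and biliverdin metabolism).

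H3K4me3, a histone mark of active promoters, was measured by PAT-ChIP-seq, an immunoprecipitation of chromatin taken from fixed tissue in paraffin blocks, in the livers of 15 female C57BL/6 mice, C57BL/6J in the study's methods. Each of 5 diets had 3 mice and 1 library per mouse. The diets were a standard diet (SD), caloric restriction (CR) with a limited daily ration of the standard diet, a high-fat diet (HF), a yellow corn diet (YD) and a purple corn diet (RD). In YD the maize of the standard diet was replaced by yellow kernels without anthocyanins, and in RD by kernels of a near-isogenic purple hybrid rich in them. All mice were wild-type, and all but the CR mice ate without restriction. The diets began at an age of 3 months and were given for 10 months, while the labels of the samples state 12 months of age. The litter of each mouse is not given in the sources used here. The labelled tissue was liver. Of 8 hepatocyte genes, Ttr, Cyp2e1, Tat and Hnf4a were marked in all 15 libraries, Cps1 in 13, Apoa1 in 11, Alb in 8 and Serpina1c in 6, which included no corn diet mouse.

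Nrf2, the product of Nfe2l2, is a transcription factor that Keap1 holds in the cytoplasm and hands to a ubiquitin ligase for degradation. When electrophiles or oxidants modify cysteines of Keap1, Nrf2 escapes, enters the nucleus, pairs with a small Maf protein and binds antioxidant response elements near its target genes. In liver these targets supply glutathione, reduce peroxides and quinones, and break down heme.

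The data were lists of islands, the name the peak caller SICER2 gives to an enriched region, each with a score. A promoter was called marked when an island lay within 1 kb of any of the gene's transcription start sites (TSSs). The score sums the evidence over the windows of an island, so it rises with width, and it is not scaled between libraries. It was therefore turned into a percentile, the percent of the islands of the same list with a score at or below it, and set to 0 where the promoter had no island. A percentile is thus a rank of an island among islands and not a density of the mark. In whole tissue, fewer cells that carry a mark and less of the mark per cell cannot be told apart.

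The lists differed in length before any gene was considered. They held 7825 to 33752 islands from 5589269 to 15449854 recovered reads, and 17.5% to 54.6% of all coding genes were marked. The share of coding genes marked was 17.5% to 26.5% in YD, 27.8% to 34.7% in RD, 32.7% to 43.1% in SD, 35.5% to 48.2% in CR and 47.6% to 54.6% in HF. Markers of other liver cells also differed between diets, not all in the same order. Of 5 sinusoidal endothelial genes, 2 to 5 were marked in HF, 1 to 2 in CR, 0 to 4 in SD, 0 to 1 in RD and 0 in YD. Of 5 stellate cell genes, 1 to 3 were marked in HF and 0 to 1 in every other library. Kupffer cell genes were marked in HF alone, with 0 to 3 of 6. At most 1 of 4 cholangiocyte and 1 of 5 lymphocyte genes was marked in any library. Of 8 hepatocyte genes, 8 were marked in every HF library, 5 to 7 in SD, CR and YD libraries, and 4 to 7 in RD libraries. The part of list length and of cell composition in the results below was not tested.

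The promoter sequences of 5 of the genes show what the rest of the text refers to. Srxn1 is shown since it was marked in every RD and no YD mouse, Blvrb since it was marked in neither corn diet, Txnrd1 and Prdx1 since they were marked in every mouse, and Nqo1 since it was marked in 1 mouse. Each runs 5′ to 3′ along the gene's strand over 300 bases, from 250 before the RefSeq start to 50 after it, on GRCm38.p6, the same assembly as mm10. Capitals mark the core of the antioxidant response element, TGACNNNGC on either strand, the only motif searched.
Srxn1, chr2:152105274-152105573, plus strand: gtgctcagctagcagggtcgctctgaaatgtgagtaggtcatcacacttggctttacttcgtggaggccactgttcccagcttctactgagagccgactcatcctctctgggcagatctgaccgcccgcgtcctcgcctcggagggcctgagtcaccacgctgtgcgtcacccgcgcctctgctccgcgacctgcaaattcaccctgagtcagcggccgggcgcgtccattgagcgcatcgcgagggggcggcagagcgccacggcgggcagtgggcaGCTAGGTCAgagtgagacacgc
Txnrd1, chr10:82858956-82859255, plus strand: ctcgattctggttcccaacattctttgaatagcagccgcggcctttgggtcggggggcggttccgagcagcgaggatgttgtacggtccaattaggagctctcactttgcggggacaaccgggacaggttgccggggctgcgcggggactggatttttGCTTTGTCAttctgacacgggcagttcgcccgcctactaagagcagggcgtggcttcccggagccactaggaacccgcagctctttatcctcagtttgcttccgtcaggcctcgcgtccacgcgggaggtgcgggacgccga
Prdx1, chr4:116685349-116685648, plus strand: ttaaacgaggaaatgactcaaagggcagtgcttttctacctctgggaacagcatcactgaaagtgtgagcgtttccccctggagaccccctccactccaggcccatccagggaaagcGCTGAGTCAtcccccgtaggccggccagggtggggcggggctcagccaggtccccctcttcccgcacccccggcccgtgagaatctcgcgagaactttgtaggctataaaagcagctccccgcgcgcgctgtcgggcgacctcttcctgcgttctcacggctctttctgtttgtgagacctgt
Blvrb, chr7:27447728-27448027, plus strand: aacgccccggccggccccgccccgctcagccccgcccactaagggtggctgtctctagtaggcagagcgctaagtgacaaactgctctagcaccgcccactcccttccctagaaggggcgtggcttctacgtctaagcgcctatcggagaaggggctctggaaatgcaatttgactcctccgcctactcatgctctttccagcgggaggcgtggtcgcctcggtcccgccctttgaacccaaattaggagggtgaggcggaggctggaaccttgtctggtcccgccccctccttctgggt
Nqo1, chr8:107403156-107403455, minus strand: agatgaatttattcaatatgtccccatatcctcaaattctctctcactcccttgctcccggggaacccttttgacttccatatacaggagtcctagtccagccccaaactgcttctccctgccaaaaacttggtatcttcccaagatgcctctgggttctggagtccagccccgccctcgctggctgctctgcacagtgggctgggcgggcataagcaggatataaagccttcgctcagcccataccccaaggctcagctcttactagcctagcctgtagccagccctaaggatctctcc

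RefSeq promoters were matched for 8 of the 10 genes, and those of Hmox1 and Gclc were not used here. The element's core was found in 5 of the 8, against 12.4% of all 32851 promoters of the same length. For the 8 genes 1 promoter each was counted, while the 32851 include more than 1 promoter of some genes. The 8 were also richer in G and C, with a median of 62.2% against 52.7%, and were chosen as genes of the Nrf2 response. Its first base lay 240 bases before the start in Nfe2l2, 134 before it in Gclm, 92 before it in Txnrd1, 133 before it in Prdx1 and 28 after it in Srxn1. Over a wider window, 1 kb to either side of the TSS, 6 of the 10 genes held the core against 52.0% of 21649 coding genes. The TSS was not chosen alike for both. For the 10 genes it was the coding start that lay inside an island in most lists. For the other genes it was the most upstream coding start, so the shares are not strictly comparable. A match of these letters is a description of the sequence and not a measured binding site.

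The genes also differed in their content of CpG dinucleotides, which is known to be high at promoters that carry H3K4me3 in most tissues. In the window of 1 kb to either side of the TSS, the observed over expected CpG ratio was highest in Gclm (0.886) and Gclc (0.794). It was lowest in Nqo1 (0.328) and Hmox1 (0.371). The other 6 genes lay between 0.507 in Blvrb and 0.699 in Keap1. The median over coding genes was 0.668 for those marked in all 15 lists, 0.589 for those marked in 1 to 14 and 0.225 for those marked in none. The windows of the 10 genes were placed with the help of the islands, as above, and those behind the medians were not. Nqo1 and Hmox1 were also the genes marked in the fewest lists, 1 and 7 of 15. The order was not the same throughout, as Txnrd1 (0.555), marked in all 15 lists, lay below Srxn1 (0.660), marked in 10. A link between the ratio and the mark was not tested.

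The comparison of RD with YD asks what the anthocyanins of purple corn add to the same corn without them. In RD, 7, 8 and 7 of the 10 genes were marked, and in YD 6, 6 and 3. The means were 7.33 ± 0.577 in RD and 5 ± 1.73 in YD (SD, n = 3), a difference of 2.33 genes. Every RD mouse had more marked genes than any YD mouse, as it also had a larger share of all coding genes marked. With the same number of highest-scoring islands taken from every list (7825), the difference was 0. Without YD_3, the list with the fewest marked genes, it was 1.33, and between libraries that share the ChIP form of name it was 2.5.

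**Figure D1:**
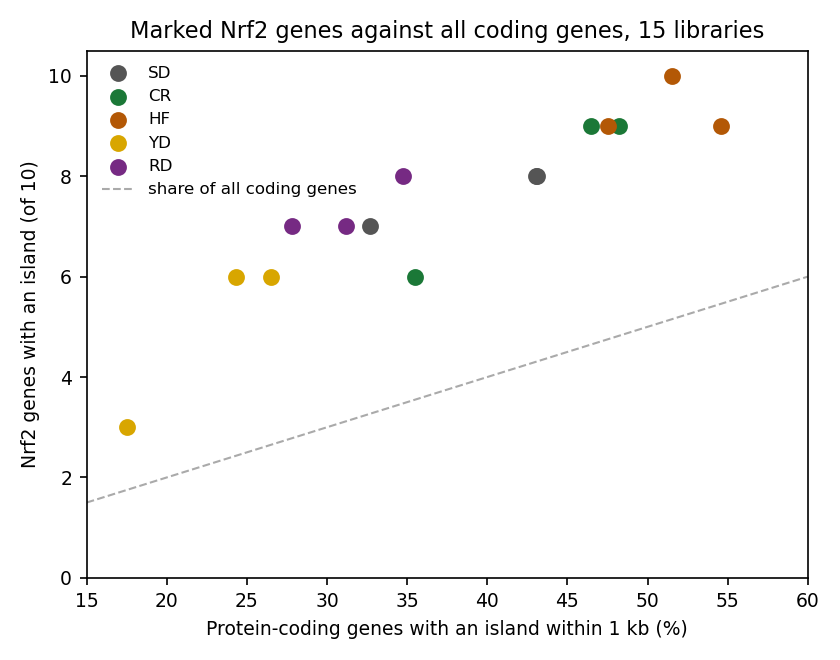
Number of the 10 Nrf2 genes with an island within 1 kb of a TSS (vertical axis) against the percent of all protein-coding genes with one (horizontal axis), 1 point per library, coloured by diet; 2 SD libraries with 8 genes lie on each other. The YD libraries sit at the lower left with 3 to 6 genes and the HF libraries at the upper right with 9 to 10, and every library lies above the dashed line that marks an equal share.

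Of the 9 genes that could be tested (Nqo1 had too few islands), 0 were called between RD and YD by limma on the percentile at an adjusted p under 0.05, where 1.75% of 11200 coding genes were called higher in RD and 0.0179% lower. None of the 9 had an unadjusted p under 0.05 either, beside 13.3% of all genes tested that were higher at that p and 0.491% that were lower. The mean percentile was higher in RD for 7 of the 10 genes and lower for 1, Prdx1, beside 66.1% of all genes tested that were higher in RD, and with the same number of islands from every list the direction turned for Keap1, Gclc, Gclm and Txnrd1. The median difference was 9.38 percentile points over the 9 genes tested and 9.17 over all 11200 genes.

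**Figure D2:**
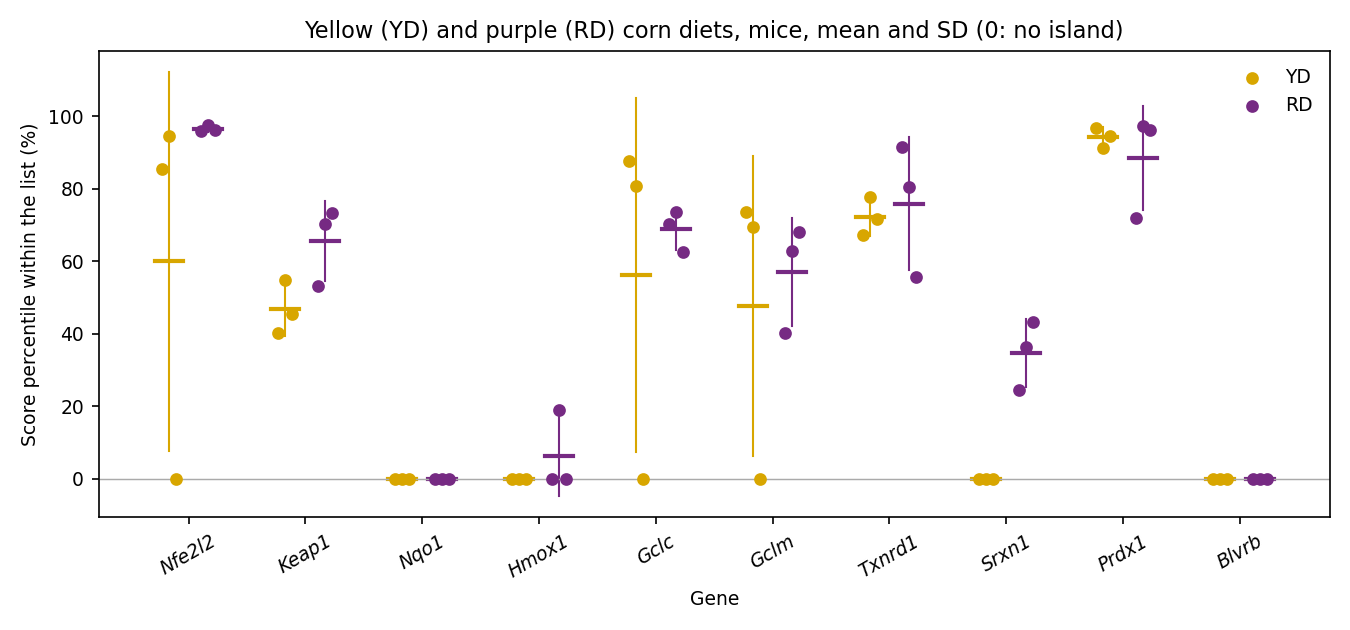
Percentile of the island at each promoter within its own list (vertical axis, percent) for the 10 genes in the 3 YD and 3 RD mice, with 0 for no island; bars give the mean and lines the SD. Srxn1 and Nfe2l2 have RD points all above their YD points, the 3 genes with a YD point at 0 beside 2 high ones lack the island in YD_3, and Blvrb and Nqo1 are at 0 in both diets.

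Srxn1 encodes sulfiredoxin, which reactivates peroxiredoxins whose cysteine has been over-oxidised. It lies at chr2:152105516-152111376 on the plus strand of mm10. Its island reached the percentiles 24.7, 36.4 and 43.1 in the RD mice, with widths of 1000, 1200 and 1000 bp, and no YD mouse had one. It was the single gene of the 10 with an island in all RD mice and no YD mouse, a pattern of 2.12% of the genes tested, while 0 of the 10 had the reverse pattern (0.0536% of the genes tested). The difference in percentile was 34.7 points (SE 17.9, limma adjusted p = 0.434). An exact permutation test gave p = 0.1, the smallest that 3 mice against 3 allow. The nearest island in the YD mice was 121077 to 364324 bp from the TSS.

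The RD islands of Srxn1 were of low rank, with scores of 17.7, 29.2 and 19.9 where the lowest scores of the same lists were 15.3, 23.3 and 15.2. The lowest scores of the YD lists were 26.8, 16.1 and 14.5. With the same number of highest-scoring islands from every list, Srxn1 was marked in 1 of 3 RD mice, and at or above the median score in 0 of 3. In RD_2 and RD_3 the island began 277 bp downstream of the TSS, so that the start itself lay inside the island in 1 RD mouse.

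Outside the corn diets, Srxn1 was marked in 2 of 3 SD mice, at the percentiles 17.2 and 54.5, and in 2 of 3 CR mice, at 63.9 and 79.4. In HF all mice were marked, at 59.3, 72.4 and 59.8. The HF values were all above those of SD, with a difference of 40.0 points (SE 17.9, limma adjusted p = 0.413, exact permutation p = 0.1), as were those of 16.1% of the genes tested. The RD values lay between those of SD_1 and SD_2.

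Prdx1 and Txnrd1, which carry out the reactions around sulfiredoxin, were marked in all 15 mice. Prdx1 encodes a peroxiredoxin that reduces hydrogen peroxide and lies at chr4:116685544-116700822 on the plus strand. Its percentile was 91.1 to 98.6 in 14 mice and 71.9 in RD_1. The island was 1800 to 5600 bp wide, with means of 2600 ± 529 bp in RD and 2733 ± 1447 bp in YD (SD, n = 3). The difference of RD from YD was -5.65 percentile points (SE 7.87, limma adjusted p = 0.925) and 0.03 on the log2 scale of the width (SE 0.45, limma adjusted p = 0.995). Without RD_1 the percentile was 2.63 points higher in RD, so that its sign rested on that mouse.

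Txnrd1 encodes cytosolic thioredoxin reductase, which uses NADPH to keep thioredoxin reduced, and lies at chr10:82833951-82897712 on the plus strand. The percentiles were 91.5, 80.5 and 55.6 in RD and 67.2, 77.8 and 71.6 in YD, so that the groups overlapped. The difference was 3.68 points (SE 12.2, limma adjusted p = 1) and turned to -4.12 without RD_1. The island was 2800, 3400 and 1000 bp wide in RD and 2400, 1600 and 1000 bp in YD. The difference in width was 0.44 on the log2 scale (SE 0.47, limma adjusted p = 0.906), where 0 of 2059 genes were called (0% in either direction) and 110 had an unadjusted p under 0.05 with wider islands in RD and 12 with narrower ones. In HF the islands of Txnrd1 were 3600, 3800 and 3400 bp wide, with percentiles of 94.4, 92.1 and 90.3, all above those of SD (78.3, 82.0 and 87.7), as for 16.1% of the genes tested. That difference of 9.59 points did not pass the test (SE 12.2, limma adjusted p = 0.873).

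At Txnrd1 the mark sat at 1 of its start regions. The start at position 82833951, the upstream end of the gene, was unmarked in every library, while the starts from 82859179 to 82860505 were marked in every one. A long noncoding RNA, Gm38560, starts 199 bp away on the opposite strand, and its TSS lay in 14 of the 15 Txnrd1 islands, so that the mark of the pair cannot be told apart.

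**Figure D3:**
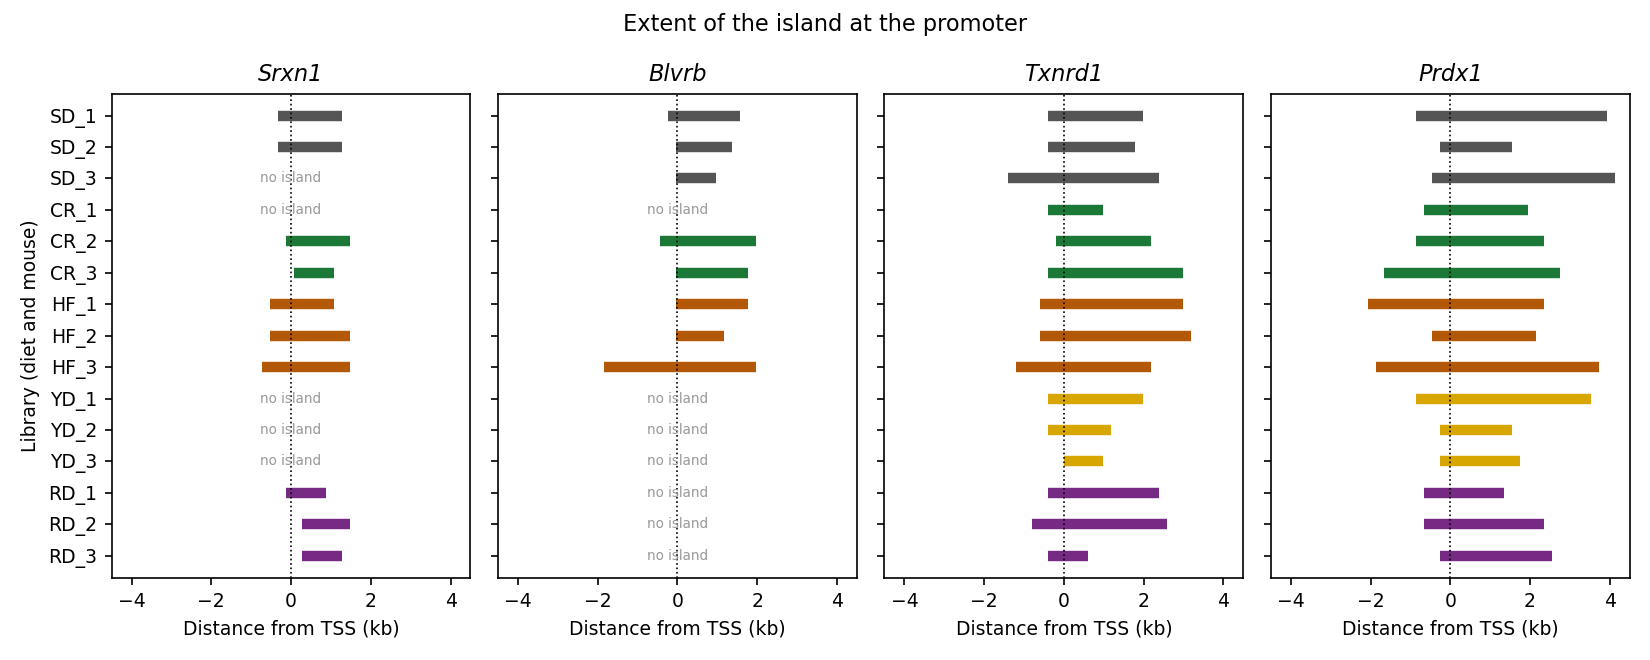
Extent of the island at the promoters of Srxn1, Blvrb, Txnrd1 and Prdx1 in each library (rows, coloured by diet) against the distance from the TSS in kb, positive into the gene. Txnrd1 and Prdx1 have a bar in all 15 rows, Srxn1 has none in the 3 YD rows, and Blvrb has none in the 6 rows of the corn diets or in CR_1.

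Nfe2l2 encodes Nrf2 itself and lies at chr2:75675513-75704641 on the minus strand. Its island ranked high in every list that held one. The percentile was 95.9, 97.5 and 96.1 in RD and 85.4 and 94.6 in YD_1 and YD_2, with no island in YD_3, whose nearest island was 43041 bp away. All RD values were above those of YD, as for 10.7% of the genes tested, while 0 of the 10 genes had all RD values below those of YD (0.348% of the genes tested). The difference was 36.5 points (SE 18.0, limma adjusted p = 0.403, exact permutation p = 0.1), and 6.52 points without YD_3. With the TSS inside the island it was 4.49 points, with 2 RD and 2 YD mice marked. In RD_3 the island began 241 bp downstream of the TSS. Counted from the top of each list, the island ranked 591, 793 and 497 in RD and 1147 and 506 in YD_1 and YD_2. By that count YD_2 lay above RD_1 and RD_2. In SD, CR and HF the percentiles were 96.1 to 98.6, and the mean of RD differed from that of SD by -0.74 points (SE 18.0, limma adjusted p = 1). That SE is shared over the diets, while the SD between mice was 0.890 in RD, 1.30 in SD and 52.2 in YD.

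The island of Nfe2l2 was broad, 2400 to 5400 bp, and extended a median of 3340 bp into the gene and 759 bp upstream of the TSS. A noncoding transcript, E030042O20Rik, starts 129 bp away on the opposite strand, and its TSS lay in 12 of the 14 islands. The mark of the pair cannot be told apart.

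Keap1, the repressor, lies at chr9:21229730-21239361 on the minus strand. Its percentile was 53.1, 70.3 and 73.4 in RD and 40.2, 55.0 and 45.4 in YD. The groups overlapped in 1 mouse each, and the difference was 18.7 points (SE 18.9, limma adjusted p = 0.823, exact permutation p = 0.2). Counted from the top of each list, the island ranked 6780, 9543 and 3370 in RD and 4677, 4237 and 5956 in YD. The YD islands began 279 to 479 bp downstream of the TSS. With the TSS inside the island, 3 RD mice and 1 YD mouse were marked, and the difference was 52.2 points (SE 20.4, limma adjusted p = 0.333). Widths were 1400, 2600 and 1800 bp in RD and 2200, 1200 and 1000 bp in YD. Keap1 and the thioredoxin system genes Txnrd1 and Prdx1 were the genes marked in all 3 YD mice.

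In the mice of the other diets Keap1 ranked higher. Its percentile was 83.7 to 92.4 in CR, 85.5 to 94.2 in HF, and 93.0 and 91.2 in SD_1 and SD_2, above all values of the corn diets, while SD_3 had no island. In the fit over all mice YD differed from SD by -14.5 points (SE 18.9, limma adjusted p = 0.637), and without SD_3 by -45.2 points (SE 8.89, limma adjusted p = 0.0104). Without SD_3, 14% of all genes tested were called lower in YD, against 6.49% with it.

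Gclc and Gclm encode the catalytic and the modifier subunit of glutamate-cysteine ligase, the rate-limiting enzyme of glutathione synthesis. Both were marked in 14 of 15 mice and lacked an island in YD_3. They share this pattern of presence with Nfe2l2, and 834 other coding genes have it.

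Gclc lies at chr9:77754535-77794485 on the plus strand. Its percentile was 70.3, 73.6 and 62.5 in RD and 87.7 and 80.7 in the YD mice that had an island. The mean was 12.7 points higher in RD with YD_3 set to 0 (SE 17.9, limma adjusted p = 0.928) while the difference was -15.4 points without YD_3. Against SD, with 86.4, 90.5 and 85.4, all RD values were lower, as for 8.11% of the genes tested. The difference was -18.6 points (SE 17.9, limma adjusted p = 0.826, exact permutation p = 0.1). Islands of Gclc began 66 to 466 bp downstream of the TSS in 12 of 14 lists, and in the other 2, CR_2 and HF_3, they reached across it.

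Gclm lies at chr3:122245557-122270732 on the plus strand. Its percentile was 40.2, 62.9 and 68.1 in RD, 73.6 and 69.3 in the marked YD mice, and 83.6, 76.7 and 91.0 in SD. The YD mice with an island were again above every RD mouse, and all RD and YD values were below those of SD, as for 8.11% and 23.1% of the genes tested. The difference of RD from YD was 9.38 points (SE 17.4, limma adjusted p = 1) and turned to -14.4 without YD_3. The difference from SD was -26.7 points in RD (limma adjusted p = 0.705) and -36.1 in YD (limma adjusted p = 0.204), both with an SE of 17.4.

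The islands of Gclm were also narrower than in SD. They spanned 1400, 2000 and 2000 bp in RD and 3600, 2400 and 3400 bp in SD, without overlap, a difference of -1333 bp (exact permutation p = 0.1). Of 3962 genes marked in all RD and SD mice, 10.2% had RD widths all below those of SD. CR islands, 1400, 2200 and 2000 bp, were likewise all below SD, with a difference of -1267 bp (exact permutation p = 0.1), as for 1.48% of 5389 genes marked in all CR and SD mice. Those of HF, 3000, 3200 and 2200 bp, overlapped with SD.

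Hmox1 and Blvrb belong to heme and biliverdin metabolism: heme oxygenase breaks heme down to biliverdin, and Blvrb is a biliverdin reductase that reduces the beta isomer and flavins. Blvrb lies at chr7:27447978-27466144 on the plus strand. It was marked in no mouse of either corn diet and in 8 of the 9 others, CR_1 being the exception. Of the 11200 genes tested, 240 (2.14%) had no island in the corn diets and one in at least 8 of the 9 other mice.

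The percentile of Blvrb was 66.7, 54.6 and 48.1 in SD, 63.4 and 70.6 in CR_2 and CR_3, and 58.9, 71.5 and 60.1 in HF. The islands were 1000 to 3800 bp wide, and in the 7 unmarked mice the nearest island was 23769 to 25369 bp away. Blvrb was the single gene of the 10 called over the 5 diets (limma F test, adjusted p = 0.0178), beside 16.1% of the genes tested.

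YD and RD each differed from SD by -56.5 points at Blvrb (SE 14.5), with 3 of 3 mice lower in both. An island in every SD mouse and none of the other diet was found in 6.79% of the genes tested for YD and in 2.04% for RD. The adjusted p of limma was 0.0391 for YD, where 6.49% of genes were called lower, and 0.175 for RD, where 0.116% were and 0.00893% were called higher. The equal differences thus fell on either side of the threshold, and the comparisons share the SD mice. Both corn diets were at 0 in every mouse. The call for YD was lost without SD_1 or SD_2 (adjusted p = 0.149 and 0.094) or without any 1 of the HF or YD mice (0.0572 to 0.0988), and it was lost with the same number of islands from every list (0.649). Without CR_1, the mouse that lacked the island, RD was also called (adjusted p = 0.0077), as were 1.06% of all genes tested.

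The Blvrb islands began close to the TSS, a median of 31 bp upstream, and extended 1668 bp into the gene. A start of the beta spectrin gene Sptbn4 lies 346 bp away on the opposite strand, and its TSS was inside 2 of the 8 islands. Of 5 sinusoidal endothelial genes, 0 were marked in YD, 0 to 1 in RD, 0 to 4 in SD, 1 to 2 in CR and 2 to 5 in HF. Of 5 stellate cell genes, 0 were marked in YD and RD, 0 to 1 in SD and CR and 1 to 3 in HF. Kupffer cell genes were marked in HF alone. Other sets had another order. Of 8 hepatocyte genes, 5 to 7 were marked in SD, CR and YD, 4 to 7 in RD and 8 in HF. Of the lymphocyte genes Ptprc alone was marked, in 2 RD mice, no YD mouse and 1 mouse of each other diet. Of the cholangiocyte genes Krt7 alone was marked, in 1 CR mouse. The part of cell composition in the result for Blvrb was not tested.

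Hmox1 lies at chr8:75093621-75100589 on the plus strand. It was marked in all 3 HF mice, at the percentiles 74.5, 45.6 and 32.8, in CR_2 and CR_3 at 33.5 and 60.7, in SD_3 at 44.5 and in RD_2 at 19.1. No YD mouse had an island, and RD and YD differed by 6.36 points (SE 16.3, limma adjusted p = 1). HF was 36.1 points above SD (SE 16.3, limma adjusted p = 0.418), with an overlap between the groups, where 1.05% of the genes tested were called higher. Hmox1, Srxn1 and Blvrb were the 3 genes marked in every HF and no YD mouse, a pattern of 25.7% of the genes tested.

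Nqo1, the quinone reductase often used as a readout of Nrf2 activity, lies at chr8:107388225-107403206 on the minus strand. It was marked in 1 of 15 mice, HF_3, by an island of 800 bp at chr8:107403001-107403800. Its score of 20.3 was close to the lowest of that list, 18.96, and its percentile was 5.31. In the other 14 mice the nearest island was 19795 to 184395 bp away. As 196 other coding genes were also marked in HF_3 alone, and so had a correlation of 1 with Nqo1 over the 15 libraries, no small group of genes most like it could be named.

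**Figure D4:**
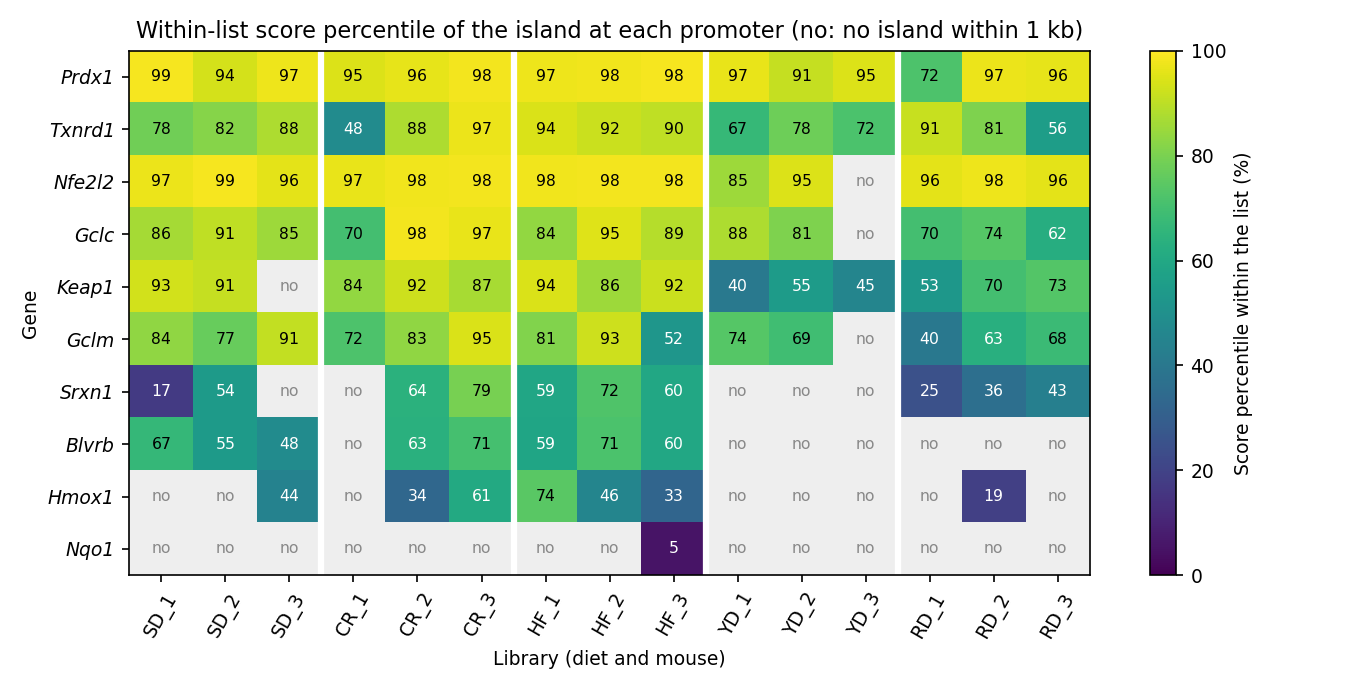
Percentile of the island at each promoter within its own list (colour and printed value, percent) for the 10 genes (rows) in the 15 libraries (columns, grouped by diet); grey cells have no island. Prdx1 and Txnrd1 are coloured in every column, Nqo1 in HF_3 alone, and YD_3 has 3 coloured cells.

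Ordered by the median percentile over the marked lists, Nfe2l2 (97.3) and Prdx1 (96.7) came first. Gclc (85.9), Keap1 (84.6), Txnrd1 (82.0) and Gclm (75.2) followed, and their ranges of 62.5 to 98.2, 40.2 to 94.2, 48.4 to 97.2 and 40.2 to 94.5 overlapped. Blvrb (61.7), Srxn1 (56.9) and Hmox1 (44.5) came below them, with ranges of 48.1 to 71.5, 17.2 to 79.4 and 19.1 to 74.5, and Nqo1 with its single island was last. These medians rest on different lists for each gene, and in the 7 lists with an island at both, Srxn1 was above Blvrb in 4. Neighbours in this order overlapped in range at each step but the last, since the value of Nqo1 lay below all others.

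Against SD, the corn diets had fewer marked genes on average and mostly lower ranks, as did coding genes as a whole. SD had 8, 8 and 7 marked genes (7.67 ± 0.577, SD, n = 3), so that RD differed by -0.333 and YD by -2.67 genes. The counts of RD and SD overlapped. The mean percentile was below SD for 9 of the 10 genes in YD and for 7 in RD. Over the 9 genes in the test the median difference was -23.9 points in YD and -8.05 in RD, beside -23.7 and -9.38 over all genes tested. All YD values were below all SD values at Nfe2l2, Gclm, Txnrd1 and Blvrb, as for 23.1% of the genes tested, and all RD values at Gclc, Gclm and Blvrb, as for 8.11%.

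CR and HF had a higher mean number of marked genes than SD, though CR_1 had fewer than any SD mouse. The mean percentile in HF was above SD for 9 of the 10 genes and below it for 1, Gclm. In CR it was above SD for 5 and below it for 4. CR had 6, 9 and 9 marked genes (8 ± 1.73, SD, n = 3), and HF 9, 9 and 10 (9.33 ± 0.577, SD, n = 3). Of the 9 genes tested, 0 were called against SD in CR or in HF, where 0.0714% and 1.05% of genes were called higher and 0% lower in both. The median difference over the 9 genes was 0.29 points in CR and 7.03 in HF, beside 5.77 and 12.8 over all genes tested. Hmox1 and Srxn1 were the genes of the 9 with an unadjusted limma p under 0.05 in HF, both higher, beside 11.3% of all genes tested.

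The rest of the pathway was described with a list of 48 genes: 16 regulators of Nrf2, 26 antioxidant and detoxification targets and 6 enzymes that make NADPH, the reductant of the thioredoxin and glutathione systems. In YD, 21 to 25 of the 48 were marked (23.7 ± 2.31, SD, n = 3) and in RD 26 to 33 (30 ± 3.61). The counts were 38.3 ± 4.73 in SD, 39.3 ± 5.51 in CR and 44 in each HF mouse. RD had more of the 48 marked than YD in every mouse, as for all coding genes.

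Of the 46 pathway genes that could be tested, 0 were called between RD and YD, between RD and SD, between CR and SD or between HF and SD. The shares of all genes called were 1.75% higher for RD against YD, 0.116% lower for RD, 0.0714% higher for CR and 1.05% higher for HF against SD. Between YD and SD 2 were called, both lower in YD, where 6.49% of all genes were. Gsr, which encodes glutathione reductase, differed by -57.1 points (SE 15.1, limma adjusted p = 0.0434), with an island in every SD and no YD mouse. G6pdx, the first enzyme of the pentose phosphate pathway and a source of NADPH, differed by -60.1 points (SE 14.2, limma adjusted p = 0.028), with an island in 1 YD mouse. These calls were lost under 15 and 8 of 25 other settings.

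Among the regulators, Crebbp, a histone acetyltransferase that acts as a coactivator of Nrf2, had the pattern of Srxn1 between the corn diets. It was marked in all 3 RD mice, with a mean percentile of 55.1, and in no YD mouse, while SD, CR and HF had an island in every mouse. It was 1 of the 48 with this pattern, beside 2.12% of all genes tested. The widest islands among the pathway genes marked in all lists were those of Cat (catalase, mean 5440 bp), Gsk3b (a kinase that marks Nrf2 for degradation, 4320 bp) and Abcc2 (an export pump for glutathione conjugates, 4160 bp). At the other end, Slc7a11, the cystine transporter, and Gpx2, a glutathione peroxidase of the gut, had an island in no list. Gsta4 was marked in the 3 CR mice alone, and Abcc1 in 2 HF mice and 1 YD mouse.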

How the data were processed

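Each of 15 mouse livers gave 1 PAT-ChIP-seq library for H3K4me3. The authors aligned single reads to mm10 with BWA, dropped duplicates and alignments beyond the autosomes and X with SAMtools, and called islands in each library with SICER2 in windows of 200 bp, without pooling replicates. Each deposited list gives the position and the score of every island. The score is the authors' value, a sum over windows of the evidence against a Poisson background, and it was used only as a rank within its list. The depth of each library was recovered from the steps of its scores with an assumed effective genome fraction of 0.74, and came within 0.0007037 of a whole number of reads. Neither reads per island nor an input library was used here. An SD is the spread between the mice of a diet. An SE is that of the limma fit, which shares 1 estimate of the spread over all diets and moderates it over genes, so it is not the spread of the mice compared.

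Islands were assigned to TSSs within 1 kb (GENCODE M21, mm10) in Python 3.11.15 with pandas 2.3.3, and the highest-scoring island was taken. The percentile (0 without an island) was fitted with limma 3.58.1 in R 4.3.3 over 11200 coding genes marked in at least 3 lists, and log2 width over 2059 marked in all lists, with 1 mean per diet over all 15 libraries and Benjamini-Hochberg adjustment at a threshold of 0.05. Single values of 3 mice against 3 were tested with two-sided exact permutation tests over all splits of the mice, which cannot go below 0.1. The permutation test of scipy 1.17.1 served as a check of them on random numbers. Promoter sequences were those of RefSeq (GRCm38.p6). The procedure was tested on simulated data with normal noise and no floor at 0. That test therefore does not cover genes with every mouse of a diet at 0.

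The genes, the pathway list, the marker lists and the tests were chosen with earlier results of these data known. All 10 genes are named. Of the other 48, named are those marked in all mice of one corn diet and none of the other, those called in any contrast, the 3 marked in the fewest lists (a tie of 2 genes was kept) and the 3 with the widest islands. The replicate numbers were not treated as pairs of mice. Alternatives were other distances to the TSS, fewer islands, other ranks, other gene filters, a replicate block, the form of the library name (PATChIP or ChIP) and each mouse left out. Columns of other samples that were not used numbered 0.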

Additional observations from a re-analysis of the deposited data

How the results depend on the processing

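The lists differ in length. With the same number of highest-scoring islands from every list, the difference between RD and YD was 0 in marked genes of the 10 and -22.6 points in their median percentile. Against SD, RD was then -2.33 genes and -40.0 points, YD -17.4 points and HF 0.333 genes. With the TSS inside the island RD was -1.67 genes and -37.0 points against SD. In a setting chosen after seeing the data, without the longest list of every diet, RD and YD differed by 1 gene and -5.09 points, and YD and SD by -15.1 points. The direction of RD against YD in percentile turned with equal island numbers for Keap1 (-13.2), Gclc (-26.7), Gclm (-29.5) and Txnrd1 (-22.8). It turned with islands at or above the median score for Gclc (-7.80) and Gclm (-7.92), and with the rank among marked coding genes for Gclc (-7.33), Gclm (-7.29) and Txnrd1 (-1.55). It turned with the TSS inside the island for Gclm (-13.3), and without the longest lists for Gclc (-17.8) and Gclm (-17.4), as did log2 width for Txnrd1 (-0.23) and Prdx1 (-0.25). The cause was not tested.

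With each mouse left out, the difference between RD and YD ranged from 1.33 to 2.83 genes and from -0.499 to 30.6 points, and the median log2 width from 0.00 to 0.59. Single genes ranged from -15.4 to 28.5 points for Gclc, from -14.4 to 22.4 for Gclm, from -4.12 to 13.8 for Txnrd1 and from -10.0 to 2.63 for Prdx1. The log2 width of Prdx1 ranged from -0.21 to 0.43. Against SD, the ranges were -0.667 to -0.167 genes and -22.8 to -12.9 points for RD, and -3.17 to -1.67 genes and -48.8 to -17.8 points for YD. They were -0.167 to 1.33 genes and -3.27 to 12.5 points for CR, and 1.33 to 1.83 genes and 1.77 to 9.97 points for HF. Coding genes called by percentile ranged from 112 to 371 for RD against YD, 6 to 182 for RD, 152 to 1560 for YD, 0 to 188 for CR and 1 to 275 for HF against SD, and by width from 0 to 49.

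Coding genes called by percentile were 198 for RD against YD, 14 for RD, 727 for YD, 8 for CR and 118 for HF against SD, in this order below. They became 0, 2, 8, 13 and 0 with equal island numbers, 56, 2, 129, 4 and 0 with islands at or above the median score, and 22, 7, 175, 17 and 20 with the rank among marked coding genes. With the TSS inside the island they were 113 for RD against YD, 481 for YD against SD and 13 for CR against SD. Among genes marked in all lists they were 15, 0, 76, 0 and 0, and with the log2 score centred on those genes 0, 3, 2, 0 and 1. With genes marked in at least 1 list, RD against SD had 30 and HF against SD 202. Without the longest lists all were 0. Of the 198 calls 196 were higher in RD, and 20 of 22 with the rank among coding genes. Against SD, where 13 of 14 calls in RD and all 727 in YD were lower and all 8 in CR and 118 in HF higher, the split changed with the centred score, with all 3 calls in RD and 2 in YD higher and that in HF lower. In CR, 9 of 13 were higher with equal island numbers and 13 of 17 with the rank among coding genes.

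The replicate numbers showed no sign of pairing the mice, as the deviations of same-numbered mice had a mean correlation of -0.00471 over 30 pairs (-0.165 to 0.0718). This cannot show whether the numbers follow litter or the order of processing. With the number as a replicate block, 7 genes were called for RD, 0 for CR and 34 for HF against SD, and the call of Blvrb in YD was lost (adjusted p = 0.0563). The call of Blvrb in YD was lost in 14 of 25 alternatives and that over the diets in 3. No YD library has the PATChIP form of name, so RD and YD could not be compared within it.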
